A study of Mus musculus with 6 samples.

Results

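The genes of the mitochondrial respiratory chain were described in terminal ileum mucosa, from the end of the small intestine, in Duoxa-/- mice and in wild-type (wt) littermates housed in the same cages. They were chosen by gene symbol, as the genes whose name starts with Nduf, Uqcr, Sdha to Sdhd, Atp5 or Cox4 to Cox8, and the rule found 94 of the 18193 genes measured. Of these, 81 encode subunits, 34 of complex I, 4 of complex II, 8 of complex III, 18 of complex IV and 17 of complex V. The prefixes also caught 12 assembly factors, 8 for complex I and 4 for complex II, which are described apart, and Cox7a2l, a factor of respiratory supercomplexes. All animals were 3-month-old females of the strain 129S6. Duoxa-/- mice lack the DUOX maturation factors, which the hydrogen peroxide-releasing dual oxidases need to reach the cell surface. Each sample was RNA pooled from 2 to 3 animals of the same cage and genotype. Every cage held 1 litter, and the 3 cages gave 3 wt and 3 Duoxa-/- pools, measured on 1 Affymetrix array per pool. The 2 groups of 3 pools therefore make up 6 arrays, and their number limits the precision.

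The respiratory chain sits in the inner mitochondrial membrane. Complexes I and II pass electrons from NADH and succinate to ubiquinone, complex III passes them on to cytochrome c, complex IV hands them to oxygen, and complex V, the ATP synthase, makes ATP from the proton gradient that complexes I, III and IV build. Most subunits are encoded in the nucleus, made in the cytosol and imported, a few are made inside the mitochondrion, and assembly factors join the parts without staying in the finished enzyme. In the small intestine the chain supplies the absorptive enterocytes, whose transport of sugars, amino acids and ions uses much ATP.

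Values are log2 summaries of probe sets, and a gene is represented by its brightest probe set, so levels of different genes are not ranked against each other. The arrays correlated across probe sets with r between 0.994 and 0.998. Of 17 measured enterocyte markers, 16 lay at or above 6.58, the median of all probe set values, as did 10 of 10 smooth muscle markers. The targeted locus was read through Duoxa2, at 8.14 ± 0.81 in wt and 5.79 ± 0.21 in Duoxa-/- pools (SD, n = 3), a difference of -2.34 that did not pass over all genes (limma adjusted p = 0.760). The sources used here do not say whether its probe set lies in the deleted part. Duoxa1, the other maturation factor, read 6.31 ± 0.09 in wt and 6.16 ± 0.21 in Duoxa-/- pools, below the median of all probe set values. Its difference was -0.15 (SE 0.12, limma adjusted p = 0.819). The wt pool of cage 1 stood apart in several gene groups. Its smooth muscle markers had a median of 0.47 above their means over the 6 arrays, and its T cell and proliferation markers lay at -0.34 and -0.23. The T cell markers were split, with 6 of 10 at their lowest and 3 at their highest on that array. Other pools also stood apart: smooth muscle markers lay at -0.34 in the Duoxa-/- pool of cage 1, and T cell markers at 0.34 in the wt pool of cage 2. In a bulk sample, fewer cells of a type and less RNA per cell cannot be told apart.

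Most members read high on the arrays. Probe sets of 90 of 94 members lay at or above the median of all probe set values, and those of 63 of 94 read 12 or more in wt, against 796 of all 18193 genes. The 4 below the median were Ndufb4, an accessory subunit of complex I whose other probe sets match several genes and were left out, and the complex IV isoforms Cox4i2, Cox7b2 and Cox8b. Examples, 1 from each complex and not ranked against each other, were Ndufa1 of complex I at a wt level of 13.52 ± 0.03, the iron-sulphur subunit Sdhb of complex II at 12.71 ± 0.11, Uqcrb of complex III at 14.41 ± 0.01, Cox6a1 of complex IV at 14.47 ± 0.05 and Atp5g3, a gene for the membrane ring of the ATP synthase, at 13.88 ± 0.02 (SD, n = 3).

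The members varied little between pools. The median SD of a member over the 6 arrays was 0.065 on the log2 scale, against 0.124 for all genes. Bright probe sets vary less in general: the 796 genes at 12 or more in wt had a median SD of 0.082, and the 63 members among them 0.052. The size of the genotype difference was likewise smaller, with a median of 0.041 for members and 0.083 for all genes. At 12 or more, these medians were 0.030 for members and 0.060 for all genes. RMA summaries of very bright probe sets may compress differences, and this was not tested.

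The promoters of the genes were examined because nuclear respiratory chain genes are textbook targets of the transcription factors NRF1, GABPA (an ETS factor also called NRF2) and YY1. A RefSeq promoter of assembly GRCm38.p6, 250 bases before to 50 bases after a gene's start, was matched by symbol for 78 of the 94 members (83 windows of 300 bases). Both strands were searched for the NRF1 core GCGCANGCG, the ETS site CCGGAAG and the YY1 site AAGATGGC, letters that do not contain each other. The NRF1 core is nearly its own reverse complement, so that 1 stretch can match on both strands. The NRF1 core was found in 27.7% of member windows and in 6.25% of all 32851 windows. The ETS site was found in 26.5% against 8.86%, and the YY1 site in 12.05% against 2.75%. Member windows were richer in G and C (median 59.0%) than all windows (52.7%). Among the 6678 windows of any gene within the middle GC range of the members, 54.83% to 62.33%, the shares were 9.34%, 14.3% and 3.83%. At least 1 of the 3 motifs stood in 55.4% of member windows, in 15.96% of all windows and in 24.3% of those of like GC content. By gene, 45 of the 78 members held at least 1, 22 of them with an NRF1 core, 22 with an ETS site and 10 with a YY1 site. A match is a description of letters and not a site of binding.

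**Figure D1:**
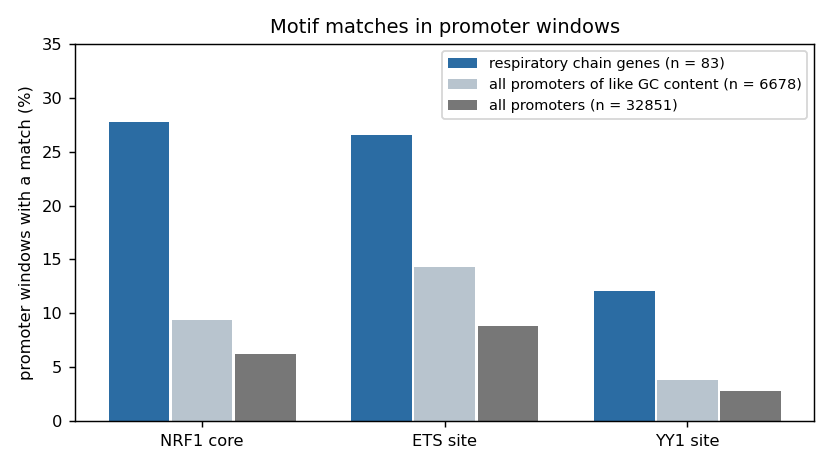
Share of promoter windows of 300 bases that hold each motif on either strand (vertical axis, percent), for the 83 windows of respiratory chain genes, the 6678 windows of like GC content and all 32851 windows. The member bars are the highest for each motif, at 27.7% for the NRF1 core, 26.5% for the ETS site and 12.05% for the YY1 site.

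The counts by complex are small, were not tested against each other and stand beside 15.96% of all windows and 24.3% of those of like GC content. All 3 matched genes of complex II subunits, Sdha, Sdhb and Sdhd, and 8 of 11 matched assembly factors held at least 1, as did 12 of 15 complex V genes, 16 of 31 complex I genes and 3 of 5 complex III genes. Of the complex IV genes, 3 of 12 did, and of the 4 matched tissue-restricted complex IV isoforms 0 did. The 3 with a match were the general forms Cox6a1, Cox6b1 and Cox8a, of which Cox6a1 held the most matches. The other general forms with a window also held none. The 180 bases just before the start are printed for 7 genes that the results turn on: 2 complex I assembly factors, 2 subunits of complex II, and the general complex IV isoform Cox6a1 beside the restricted isoforms Cox7a1 and Cox6b2, whose windows held no match. Each reads 5′ to 3′ along the strand of the gene, and capitals mark the motif matches, where CTTCCGG is the ETS site on the opposite strand. In assembly GRCm38.p6 they lie at chr4:24897903-24898082 (plus strand, Ndufaf4), chr11:120098754-120098933 (plus strand, Ndufaf8), chr13:74350241-74350420 (minus strand, Sdha), chr9:50603850-50604029 (minus strand, Sdhd), chr5:115348959-115349138 (minus strand, Cox6a1), chr7:30183991-30184170 (plus strand, Cox7a1) and chr7:4753095-4753274 (minus strand, Cox6b2).
Ndufaf4: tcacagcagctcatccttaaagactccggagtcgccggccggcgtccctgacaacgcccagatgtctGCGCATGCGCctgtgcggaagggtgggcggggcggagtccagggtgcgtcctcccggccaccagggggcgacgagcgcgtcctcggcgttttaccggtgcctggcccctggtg
Ndufaf8: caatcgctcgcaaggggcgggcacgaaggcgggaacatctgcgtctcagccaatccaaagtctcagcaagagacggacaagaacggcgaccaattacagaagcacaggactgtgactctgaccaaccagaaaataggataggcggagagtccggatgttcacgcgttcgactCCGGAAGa
Sdha: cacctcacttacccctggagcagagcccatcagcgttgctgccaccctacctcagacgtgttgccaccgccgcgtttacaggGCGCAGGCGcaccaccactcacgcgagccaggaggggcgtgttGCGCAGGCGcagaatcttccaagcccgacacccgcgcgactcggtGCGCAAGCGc
Sdhd: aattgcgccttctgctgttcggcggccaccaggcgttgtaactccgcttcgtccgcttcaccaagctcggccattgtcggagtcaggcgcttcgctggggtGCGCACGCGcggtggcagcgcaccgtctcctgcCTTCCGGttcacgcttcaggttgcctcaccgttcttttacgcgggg
Cox6a1: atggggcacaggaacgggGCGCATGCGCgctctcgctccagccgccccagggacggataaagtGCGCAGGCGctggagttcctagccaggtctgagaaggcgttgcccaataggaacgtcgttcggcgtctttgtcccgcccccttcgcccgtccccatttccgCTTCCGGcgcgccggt
Cox7a1: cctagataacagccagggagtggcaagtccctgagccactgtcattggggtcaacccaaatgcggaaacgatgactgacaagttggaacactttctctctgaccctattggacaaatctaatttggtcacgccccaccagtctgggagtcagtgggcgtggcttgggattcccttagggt
Cox6b2: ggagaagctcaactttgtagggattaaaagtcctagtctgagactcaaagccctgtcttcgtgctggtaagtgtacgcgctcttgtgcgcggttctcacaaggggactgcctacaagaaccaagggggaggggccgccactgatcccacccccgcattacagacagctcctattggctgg

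In Ndufaf4 the capitals mark an NRF1 core that matches on both strands, and in Ndufaf8 an ETS site 8 bases before the start. The Sdha stretch holds 3 NRF1 cores, and that of Sdhd holds an NRF1 core followed by an ETS site on the opposite strand. The Cox6a1 stretch holds NRF1 matches at 2 places, 1 of them on both strands, and an ETS site on the opposite strand.

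The question of the design is what loss of the DUOX maturation factors does to ileal expression when litter and cage are shared. Across the respiratory chain the differences were small and none passed the test. With limma, 0 of 94 members differed at an adjusted p under 0.05 (smallest adjusted p = 0.811), as did 0% of all 18193 genes. At an unadjusted p under 0.05, 1 member was higher in Duoxa-/- pools, Ndufaf4, and 1 lower, Cox6b2, which is 1.06% of members in each direction against 1.87% and 3.66% of all genes. In the paired limma fit with cage as a replicate block, 0 members passed (smallest adjusted p = 0.741), as did 0 of all 18193 genes. At an unadjusted p under 0.05 in that fit, 0 members were higher and 1 lower, against 396 and 770 of all 18193 genes. No member reached a 1.5-fold difference, which 41 genes of the array did. Differences ranged from -0.44 (Cox6b2) to 0.25 (Ndufaf4).

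The members' median difference, Duoxa-/- minus wt, was 0.018, with 58 of 94 members higher and 36 lower, against a median of -0.0115 over all genes and 0.0082 over the 11607 genes at or above the median level. In shares, 61.7% of members had a higher mean, against 46.1% of all genes and 52.4% of those at or above the median level. By cage the members' medians were 0.070, -0.0002 and -0.026, with 70.2%, 48.9% and 33.0% of members higher in cages 1, 2 and 3, against 50.5%, 42.2% and 50.01% of all genes. Of the members, 15 had the Duoxa-/- pool above the wt pool in each of the 3 cages and 14 below, 15.96% and 14.9% of members against 13.5% and 16.6% of all genes. The groups did not overlap for 3 members that were higher, Ndufaf4, Ndufaf5 and Ndufaf7, where all genes gave 5.08%. They did not overlap for 3 that were lower, Cox6b2, Ndufa3 and Atp5b, where all genes gave 6.46%. Without the wt pool of cage 1 the median of all members was -0.012, and without the wt pool of cage 3 it was 0.039. A group of 2 pools overlaps less easily, for members and for all genes. Without the wt pool of cage 3, 23 members were higher without overlap (24.5%, against 10.9% of all genes) and 9 lower (9.57% against 15.8%). With the wt pool of cage 1 left out, 3 were higher (3.19% against 7.56%) and 13 lower (13.8% against 10.8%). Over the 6 pools left out in turn, 3 to 23 members were higher and 4 to 13 lower, where all genes gave 7.56% to 13.5% and 10.4% to 15.8%.

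**Figure D2:**
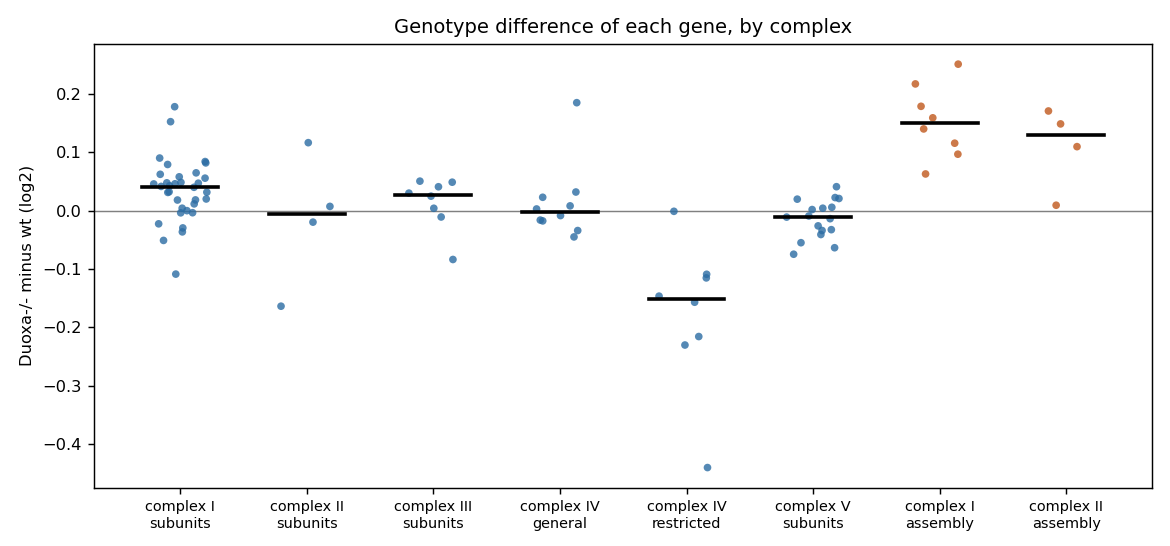
Genotype difference of each gene of the 5 complexes and their assembly factors (vertical axis, Duoxa-/- minus wt, log2), by complex, with complex IV split into general and tissue-restricted isoforms; each point is a gene and each bar the median. Complex I, III and V subunits lie near 0, the 12 assembly factors lie above 0 and the 8 restricted isoforms at or below 0, and none of these genes passed the test.

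The 12 assembly factors all had a higher mean in Duoxa-/- pools, by 0.0091 to 0.25, with a median of 0.14, and 7 of 12 were higher in all 3 cages, against 13.5% of all genes. By cage the medians were 0.25, 0.14 and 0.026, with 12, 9 and 9 of the 12 genes higher in cages 1, 2 and 3. Without the wt pool of cage 1, the lowest of the 6 arrays for 11 of 12 of these genes, the median was 0.051, and without both pools of that cage it was 0.081. Proliferation markers also differed between these pools: 10 of 11 had a higher mean in Duoxa-/- pools, and the mean of the list was 10.04 to 10.34 in wt and 10.15 to 10.44 in Duoxa-/- pools. The lowest of these means was also that of the wt pool of cage 1. Their part in the difference was not tested.

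Ndufaf4, which acts in an intermediate step of complex I assembly, read 10.05, 10.14 and 10.31 in the wt pools of cages 1, 2 and 3 and 10.33, 10.60 and 10.32 in the Duoxa-/- pools. All Duoxa-/- pools lay above all wt pools, by 0.0063 within cage 3 and by 0.46 within cage 2. The difference was 0.25 (SE 0.11), 1.19-fold, and did not pass (limma adjusted p = 0.811). It was 0.16 without the Duoxa-/- pool of cage 2. A second, dimmer probe set of the gene differed by 0.17. Ndufaf5, which hydroxylates the complex I subunit NDUFS7, read 8.03, 8.19 and 8.24 in wt pools and 8.31, 8.55 and 8.25 in Duoxa-/- pools. The groups did not overlap, with the wt pool of cage 3 and the Duoxa-/- pool of that cage 0.011 apart, and the difference was 0.22 (SE 0.10; limma adjusted p = 0.811), or 0.13 without the Duoxa-/- pool of cage 2.

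Ndufaf7, a mitochondrial methyltransferase, read 8.605, 8.75 and 8.80 in wt pools and 8.85, 8.93 and 8.91 in Duoxa-/- pools. Again each Duoxa-/- pool lay above each wt pool, and the difference was 0.18 (SE 0.08; limma adjusted p = 0.811). Ndufaf8, a partner of NDUFAF5, read 10.95, 11.08 and 11.17 in wt pools and 11.14, 11.25 and 11.29 in Duoxa-/- pools. It was higher in every cage, by 0.18, 0.17 and 0.12, although the groups overlapped. Its mean difference was 0.16 (SE 0.09; limma adjusted p = 0.811), and 0.10 without the wt pool of cage 1. Its second, dimmer probe set differed by 0.033. Ndufaf3, the partner of NDUFAF4, was higher by 0.14 (SE 0.10) and in every cage, and by 0.047 without the wt pool of cage 1.

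The factors of complex II assembly had a median of 0.13. Sdhaf3, which acts in the maturation of the iron-sulphur subunit SDHB, read 7.91 in the wt pool of cage 1 and 8.31 to 8.38 in the other 5 pools, and its difference of 0.17 (SE 0.12) was 0.030 without that pool. Its second probe set had the opposite sign, at a mean of 3.86, below the array median. Sdhaf4, which binds the flavoprotein SDHA, read 10.08 in that pool and 10.39 to 10.52 elsewhere (difference 0.15, SE 0.11, 0.031 without that pool and 0.23 without the wt pool of cage 3). Sdhaf2, which inserts the flavin into SDHA, was higher in all 3 cages (0.11, SE 0.09, and 0.048 without the wt pool of cage 2), and Sdhaf1, which also serves SDHB, differed by 0.0091 (SE 0.12).

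**Figure D3:**
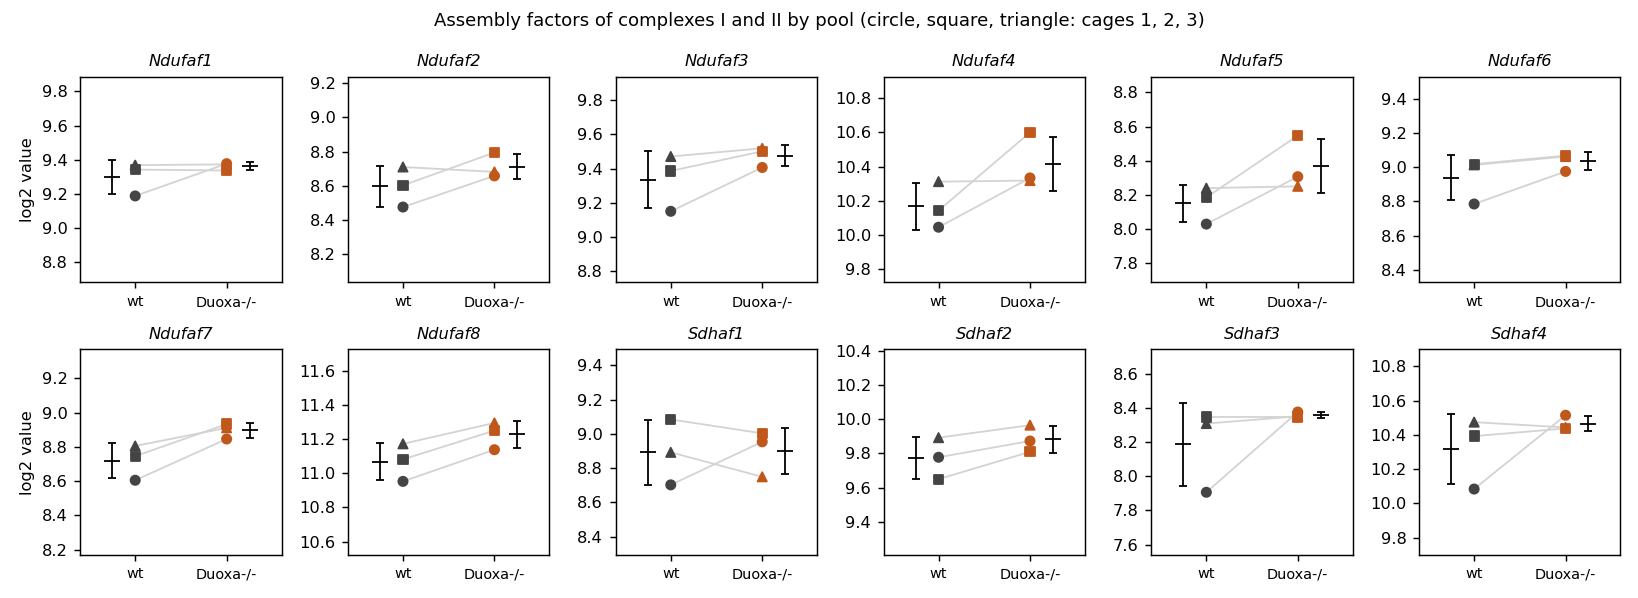
Log2 values of the 12 assembly factors of complexes I and II in the 3 wt and 3 Duoxa-/- pools, with marker shape for the cage, grey lines joining the pools of a cage and bars for mean ± SD (n = 3); every panel spans the same number of log2 units. The wt pool of cage 1 (dark circle) is the lowest value in 11 of the 12 panels, and the Duoxa-/- pools lie above all wt pools for Ndufaf4, Ndufaf5 and Ndufaf7.

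Of the 34 complex I subunits, 26 (76.5%, against 46.1% of all genes) had a higher mean in Duoxa-/- pools and 8 a lower one, with a median of 0.041 and medians of 0.083, 0.023 and -0.027 in cages 1, 2 and 3. The wt pool of cage 1 was the lowest array for 26 of the 34 (76.5%), against 26.8% of all genes, and without it the median was -0.0071. The 6 core subunits in the list, which carry the flavin and iron-sulphur clusters or line the quinone site (Ndufs1, Ndufs3, Ndufs7, Ndufs8, Ndufv1 and Ndufv2), had a median of -0.0020, with 2 higher and 4 lower. The 28 accessory subunits, which surround this core, had a median of 0.044, with 24 higher. Whether core and accessory subunits differ was not tested.

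Among complex I subunits, Ndufa3 was the only one whose groups did not overlap. This accessory subunit read 13.03, 12.99 and 13.08 in wt pools and 12.93, 12.91 and 12.94 in Duoxa-/- pools, a difference of -0.11 (SE 0.07; limma adjusted p = 0.815). Of its 3 probe sets, 1 had the opposite sign (0.030), at a mean of 4.955, below the array median. The other bright one differed by -0.11. Ndufb1, another accessory subunit, differed by 0.15 (SE 0.09), with wt values of 7.50, 7.59 and 7.69 and Duoxa-/- values of 7.80, 7.80 and 7.64, the last of these below the wt pool of the same cage. Ndufb4 differed by 0.18 (SE 0.11) on its dim probe set, at 4.67 ± 0.21 in wt (SD, n = 3). It was 0.079 without the wt pool of cage 1 and 0.29 without that of cage 3. Ndufa1 differed by -0.0039 with a 95% confidence interval of -0.16 to 0.16.

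The 4 subunits of complex II, succinate dehydrogenase, had no common direction. Sdha, the flavoprotein that oxidises succinate, read 12.11, 12.06 and 12.11 in wt and 12.08, 12.08 and 12.05 in Duoxa-/- pools, with overlapping groups (difference -0.020, 95% interval -0.18 to 0.14). Sdhb, the iron-sulphur subunit, read 12.63, 12.68 and 12.84 in wt and 12.71, 12.71 and 12.75 in Duoxa-/- pools, so that the wt values enclosed the others (difference 0.0071, SE 0.08).

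The membrane anchors of complex II had opposite signs. Sdhc read 11.45, 11.36 and 11.06 in wt and 11.06, 11.23 and 11.08 in Duoxa-/- pools, with the wt pools of cages 1 and 2 highest, a difference of -0.16 (SE 0.11). Without the wt pool of cage 1 it was -0.083, and without that of cage 3 -0.28. Its second probe set differed by -0.17. Sdhd read 12.045, 12.002 and 12.244 in wt and 12.139, 12.218 and 12.282 in Duoxa-/- pools, higher in every cage with overlapping groups, a difference of 0.12 (SE 0.09). It was 0.069 without the wt pool of cage 2 and 0.19 without that of cage 3. The limma adjusted p was 0.815 for Sdhc and 0.819 for Sdhd.

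Complex III subunits had a median of 0.027, with 6 of 8 higher, and of -0.013 without the wt pool of cage 1. None was higher or lower in all 3 cages. Uqcrc1, a core protein on the matrix side, read 12.41 in the wt pool of cage 1 and 12.15 to 12.23 in the other 5 pools, and its difference of -0.084 (SE 0.08) was -0.020 without that pool. Uqcrfs1, the Rieske iron-sulphur protein, differed by 0.050 (SE 0.07, and 0.022 without the wt pool of cage 1) and Uqcrh, the hinge protein at the cytochrome c side, by 0.048 (SE 0.09). For Uqcrq, a small accessory subunit, the probe set mattered: the brightest read 12.77 ± 0.08 in wt and 12.77 ± 0.06 in Duoxa-/- pools (SD, n = 3), while 3 dimmer ones differed by -0.54, -0.24 and -0.18. Cyc1, the cytochrome subunit of this complex, and Cycs, the somatic cytochrome c, fall outside the symbol rule and differed by -0.041 (SE 0.07) and -0.026 (SE 0.08).

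In complex IV, cytochrome c oxidase, the general and the tissue-restricted isoforms gave different medians. Several of its nuclear subunits exist as a form used in most tissues and a form known from muscle, lung, testis or hypoxic cells. The 10 general forms and single-form subunits had a median of -0.0029, with 5 higher and 5 lower. The 8 restricted isoforms (Cox4i2, Cox6a2, Cox6b2, Cox7a1, Cox7b2, Cox8b, Cox8c and Ndufa4l2) all had a lower mean in Duoxa-/- pools, by 0.0013 to 0.44. Their median was -0.15, with medians of -0.25, -0.16 and -0.044 in cages 1, 2 and 3. Their wt means ran from 4.02 to 10.46 with a median of 7.10, and 3 of the 8 lay below the median level. Of all 18193 genes, 9797 had a lower mean, as did 5524 of the 11607 at or above the median level, so that genes below that level were lower more often. Of the 8 isoforms, 5 were lower in all 3 cages, where all genes gave 16.6%, and 1, Cox6b2, did not overlap, where all genes gave 6.46%. The count of 5 includes cage differences close to 0: -0.0005 for Cox6a2 and -0.0002 for Cox8b in cage 1, and -0.0084 for Cox4i2 in cage 3. Cox8c and Cox7b2, 2 of the 8, turned sign without the wt pool of cage 1, and over the pools left out in turn the median ran from -0.12 to -0.21. Enterocyte markers also differed: 14 of 17 had a lower mean in Duoxa-/- pools, with a median of -0.089, and of -0.14, -0.15 and 0.021 in cages 1, 2 and 3. The mean of that list was 11.80 to 11.99 in wt and 11.57 to 11.97 in Duoxa-/- pools, lowest in the Duoxa-/- pool of cage 2. Their part in the isoforms' values was not tested. The difference between the general and the restricted forms was not tested. NDUFA4, once assigned to complex I, is counted here as a subunit of complex IV.

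Cox6b2, known as a testis form, read 7.03, 7.56 and 7.08 in wt pools and 6.63, 6.75 and 6.98 in Duoxa-/- pools. The wt pool of cage 2 was the highest and every wt pool lay above every Duoxa-/- pool. The difference of -0.44 (SE 0.15, 1.36-fold lower) had an unadjusted p of 0.020 and did not pass (limma adjusted p = 0.811). Without the wt pool of cage 2 it was -0.27. Its general counterpart Cox6b1 read 13.82 to 13.87 in wt and 13.84 to 13.87 in Duoxa-/- pools, a difference of 0.008 (SE 0.07).

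Cox7a1, the heart and skeletal muscle form, read 10.61, 10.26 and 10.51 in wt pools and 10.10, 10.10 and 10.48 in Duoxa-/- pools. Its groups overlapped, with both pools of cage 3 high, and it was lower in each cage by a different amount, with differences of -0.50, -0.16 and -0.029. The mean difference was -0.23 (SE 0.13; limma adjusted p = 0.811), and -0.093 without both pools of cage 1. Smooth muscle markers also differed in that cage: 10 of 10 had a lower mean in Duoxa-/- pools, with a median of -0.75 in cage 1, 0.18 in cage 2 and -0.098 in cage 3, and all 10 were highest in the wt pool of cage 1. The mean of the list was 11.12 to 11.68 in wt and 10.89 to 11.29 in Duoxa-/- pools. Of the skeletal muscle markers, 4 of 8 lay at or above the median level, with Acta1 at 7.62 to 8.69 in wt pools and Myh4, a fast myosin, at 4.02 to 4.22. Their part in the values of Cox7a1 was not tested. The general form Cox7a2 read 13.72 to 13.78 in wt and 13.68 to 13.75 in Duoxa-/- pools (difference -0.018, SE 0.07).

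Ndufa4l2, a hypoxia-induced relative of Ndufa4, read 6.99, 7.11 and 6.84 in wt and 6.70, 6.70 and 6.90 in Duoxa-/- pools, lower in cages 1 and 2 and higher in cage 3 (difference -0.22, SE 0.10; limma adjusted p = 0.811). Ndufa4 itself differed by 0.0027 (SE 0.08). Cox4i2, a hypoxia-responsive form best known from lung, differed by -0.12 (SE 0.09, and -0.066 without the Duoxa-/- pool of cage 1) at a level below the median of the array, and Cox4i1 by -0.0086 (SE 0.07). Cox6a2, the muscle form, differed by -0.11 (SE 0.09, and -0.052 without the wt pool of cage 3) and Cox6a1 by -0.034 (SE 0.07). Cox8b differed by -0.15 (SE 0.10), and by -0.056 without the wt pool of cage 2. The testis-associated Cox8c differed by -0.16 (SE 0.18), a value that rests on single pools: leaving out the wt pool gave 0.017 for cage 1 and -0.34 for cage 2, and leaving out the Duoxa-/- pool of cage 2 gave -0.053. The general Cox8a differed by 0.023 (SE 0.07). The dim Cox7b2 differed by -0.0013 (SE 0.07), and by 0.026 without the wt pool of cage 1, at 4.02 in both groups, where differences have little meaning.

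Among the other complex IV genes, Cox7c read 8.15, 8.45 and 8.06 in wt and 8.43, 8.53 and 8.26 in Duoxa-/- pools, higher in every cage with overlapping groups (difference 0.18, SE 0.12; limma adjusted p = 0.815). Leaving out 1 pool moved it between 0.10 and 0.30. This gene encodes one of the smallest subunits, and its brightest probe set of a single symbol stands for it here.

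**Figure D4:**
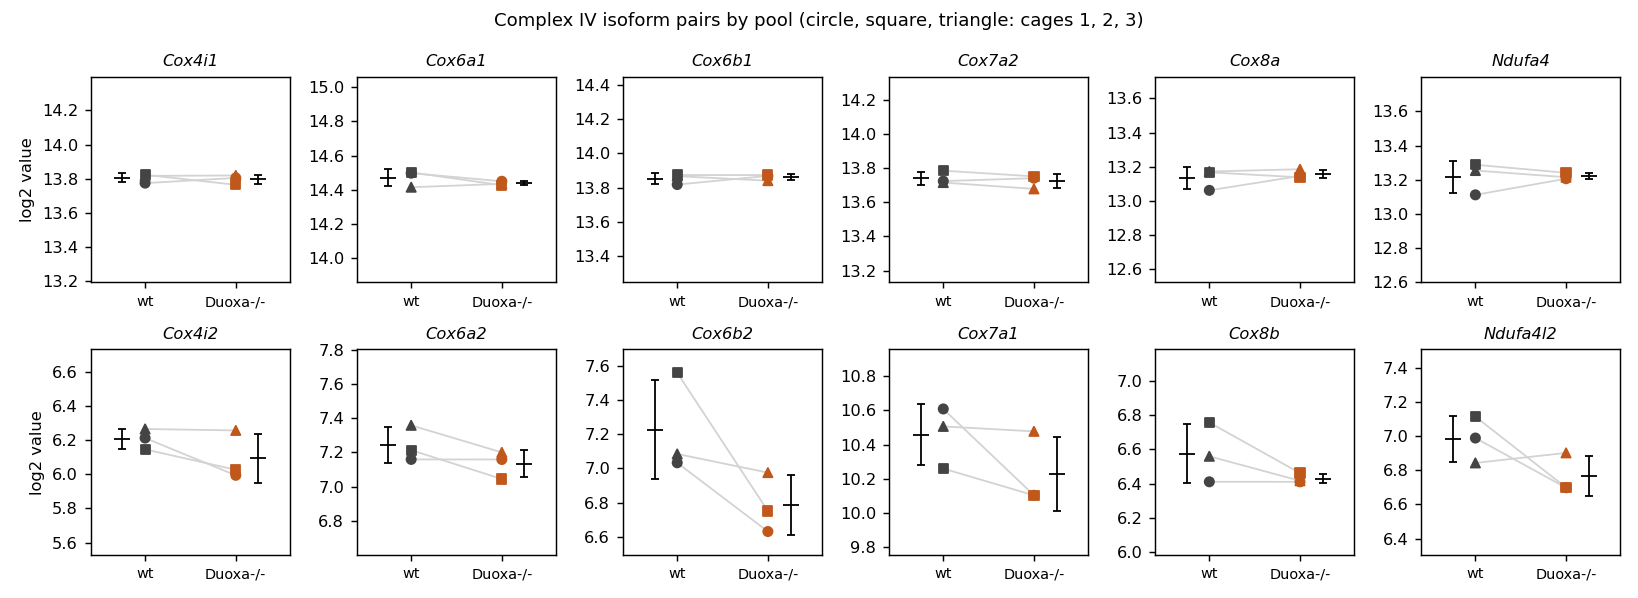
Log2 values of 6 general complex IV isoforms (upper row) and their tissue-restricted counterparts (lower row) in the 3 wt and 3 Duoxa-/- pools, with marker shape for the cage, grey lines joining the pools of a cage and bars for mean ± SD (n = 3). The general isoforms lie nearly flat, with differences between -0.034 (Cox6a1) and 0.023 (Cox8a), while the restricted ones are lower on average in Duoxa-/- pools, from -0.11 (Cox6a2) to -0.44 (Cox6b2), none past the test, with Cox8b at -0.056 without the wt pool of cage 2; every panel spans the same number of log2 units.

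Complex V subunits had the narrowest range of differences among the complexes with more than 8 members, from -0.075 to 0.041, with a median of -0.011. Of the 17, 7 had a higher mean, and 6 were lower in all 3 cages (35.3%, against 16.6% of all genes). The count of 6 includes cage differences close to 0: -0.0047 for Atp5g2 in cage 1, -0.0093 for Atp5b in cage 2 and -0.0093 for Atp5j2 in cage 3. Atp5b, the catalytic beta subunit, read 13.81, 13.71 and 13.73 in wt and 13.69, 13.71 and 13.70 in Duoxa-/- pools. The groups did not overlap, by a margin of 0.0093 between the pools of cage 2, and the difference was -0.055 (SE 0.07; limma adjusted p = 0.872). Atp5o, a subunit of the stalk, differed by -0.064 (SE 0.08).

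The 3 genes Atp5g1, Atp5g2 and Atp5g3 encode the same mature ring subunit with different import sequences. They differed by 0.021 (SE 0.08), -0.075 (SE 0.08) and 0.0017 (SE 0.07). Atp5g2 had the largest difference and was lower in all 3 cages, though at -0.0047 in cage 1. Probe sets of Atp5g1 and of Atp5g2 disagreed in sign, where those of the opposite sign had means of 4.36 and 3.64, below the array median. Atp5l, a membrane subunit at the dimer interface, differed by 0.0040 (SE 0.08). Cox7a2l differed by -0.0023 (SE 0.08).

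The pools of a cage were also compared, as each cage is a litter. With limma's moderated F-test between cages, 0 of 94 members passed (smallest adjusted p = 0.711), against 0.011% of all genes. At an unadjusted p under 0.05, 2 members differed between cages, Cox8c (0.0167) and Cox7c (0.0469), against 6.21% of all genes. Cox8c read 8.378 and 7.957 in the wt and Duoxa-/- pools of cage 1, 7.657 and 7.666 in those of cage 2, and 8.056 and 7.998 in those of cage 3, so that both pools of cage 2 were the lowest.

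Across the 6 arrays, members deviated together on 1 of them. The median deviation of the 94 members from their own means was -0.082 on the wt array of cage 1 and between -0.0008 and 0.033 on the other 5. That array was the lowest for 56 of 94 members (59.6%), against 26.8% of all genes and 32.4% of genes at 12 or more in wt. The shift was -0.20 for assembly factors, -0.086 for complex I, -0.082 for complex III, -0.033 for complexes II and V and -0.017 for complex IV. On the same array it was -0.0365 over all genes at or above the median level and -0.024 over genes at 12 or more in wt. For the restricted complex IV isoforms the wt array of cage 1 lay at 0.059 and the lowest was the Duoxa-/- array of cage 2, at -0.16. Members share their arrays, so these counts are not over independent values.

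**Figure D5:**
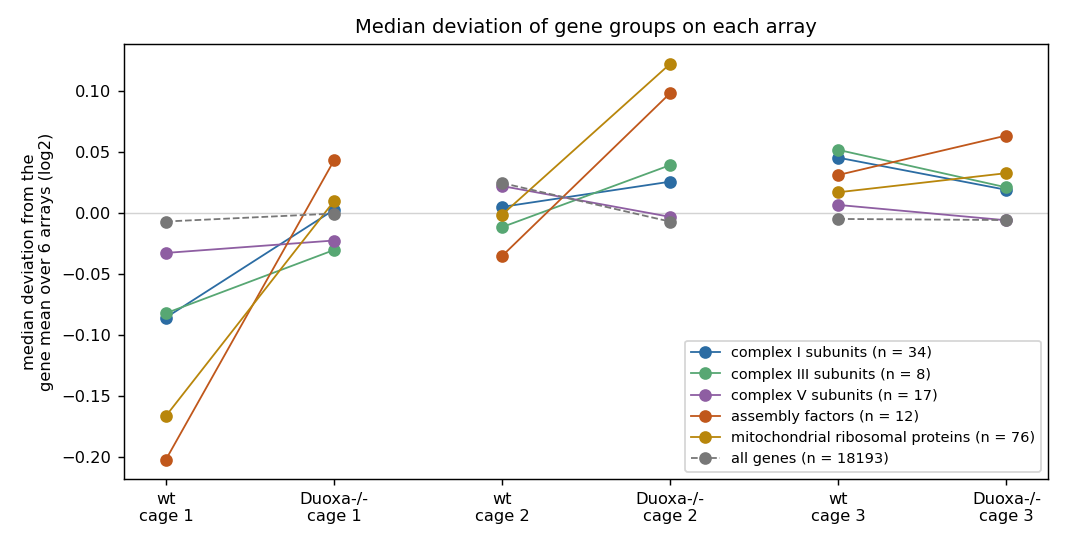
Median deviation of each gene group from the gene means over the 6 arrays (vertical axis, log2), for the wt and Duoxa-/- pool of each cage, with lines joining the pools of a cage. The wt pool of cage 1 is the lowest point for the assembly factors (-0.20), the mitochondrial ribosomal proteins (-0.17) and complexes I, III and V, while all genes together stay between -0.0070 and 0.025.

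Genes that work beside the chain were counted by lists, none of whose members passed with limma. At an unadjusted p under 0.05, 3 mitochondrial ribosomal proteins were higher and Esrra and Ogdh lower, where all genes gave 1.87% higher and 3.66% lower. Of 76 proteins of the mitochondrial ribosome, which makes the mitochondrially encoded subunits, 68 had a higher mean in Duoxa-/- pools, with a median of 0.10 and medians of 0.17, 0.11 and 0.013 in cages 1, 2 and 3. Of these, 33 (43.4%) were higher in all 3 cages and 14 (18.4%) without overlap, against 13.5% and 5.08% of all genes. Their median was 0.0345 without the wt pool of cage 1, with 55 higher. Mrps25 differed by 0.24 (SE 0.10) and Mrpl21 by 0.21 (SE 0.08). All 18 measured genes of mitochondrial protein import were higher on average (median 0.097), among them the matrix chaperone Hspa9 (0.18, SE 0.08) and the channel protein Timm23 (0.16, SE 0.08). The wt array of cage 1 was the lowest for 60 of the 76 ribosomal and 13 of the 18 import genes, and without it the import median was 0.055, with 15 higher. Proliferation markers, with 10 of 11 higher, had medians of 0.34, 0.10 and 0.027 in cages 1, 2 and 3 and were lowest on the same array, at -0.23. Their part in these values was not tested. Cytosolic ribosomal proteins had a median of 0.045, with 38 of 45 higher. The wt array of cage 1 was also the lowest for 34 of these 45 (75.6%, against 26.8% of all genes). Without it their median was 0.016, with 30 higher.

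Of 23 genes of complex IV assembly, 14 were higher and 9 lower (median 0.013), with the inner membrane insertase Oxa1l at -0.20 (SE 0.09) and Lrpprc, which stabilises mitochondrial messenger RNA, at 0.15 (SE 0.09). Of 13 factors of complexes I and III outside the symbol rule, 11 were higher (median 0.034), with Lyrm4, which serves iron-sulphur cluster synthesis, at 0.15 (SE 0.08) and Uqcc1 at -0.18 (SE 0.13). Of 4 complex V genes outside the rule, the assembly factor Tmem70 differed by 0.21 (SE 0.10) and Atpaf2 by -0.10 (SE 0.08). ND5 was the only mitochondrially encoded subunit measured, and it differed by -0.099 (SE 0.10), and by 0.0003 without the wt pool of cage 1.

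Regulators, fuel pathways and carriers gave medians of either sign, from -0.021 to 0.049. Of 19 regulators of mitochondrial biogenesis, 13 were higher (median 0.049). Esrra, the estrogen-related receptor that drives oxidative genes, read 11.18, 11.29 and 11.10 in wt and 10.95, 11.06 and 10.96 in Duoxa-/- pools, lower without overlap by a difference of -0.20 (SE 0.08; limma adjusted p = 0.811). Pprc1, a coactivator of NRF1, differed by 0.17 (SE 0.09). The factors whose motifs were searched, Nrf1, Gabpa and Yy1, chosen for these values after the promoters were examined, differed by 0.082, 0.0098 and -0.0013. Of 18 genes of the citric acid cycle and pyruvate dehydrogenase, 9 were higher and 9 lower (median -0.0060). Ogdh, the first enzyme of the 2-oxoglutarate dehydrogenase complex, read 11.25, 11.27 and 11.13 in wt and 10.82, 10.78 and 10.99 in Duoxa-/- pools, lower without overlap by a difference of -0.35 (SE 0.09; unadjusted p = 0.0035, limma adjusted p = 0.811). Pcx, pyruvate carboxylase, differed by -0.14 (SE 0.09). Of 11 carriers and channels, 7 were lower (median -0.021), with the citrate carrier Slc25a1 and the dicarboxylate carrier Slc25a10 both at -0.14.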

How the data were processed

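Total RNA of ileal mucosa was labelled with biotin by in vitro transcription and hybridised to single-colour Affymetrix arrays, per the labels' protocols. The deposited values are log2 probe set summaries that the authors made with RMA (affy), per the submitters' processing notes. The sources used here name no version or settings. RMA corrects background, equalises array distributions and summarises probes, which compresses differences of dim probe sets. No detection calls or raw intensities were used here.

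Of 45101 rows, 64 controls were left out. Of the others, 34945 probe sets had 1 symbol in the platform annotation, 932 several and 9160 none. For each of the 18193 genes, the probe set of highest mean over the 6 arrays was used. The symbol rule matched 185 probe sets, with more than 1 for 53 of the 94 members, and 10 probe sets of several symbols with a match were left out.

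Genotype was tested with limma 3.58.1 (R 4.3.3), using lmFit and eBayes without a cage term, in a two-sided test with Benjamini-Hochberg adjustment over all genes and a threshold of 0.05. The moderated F-test of limma compared cages, with genotype as a term. Adjusted p values, SE and 95% intervals come from limma, and each SD covers 3 pools. The fits were tested on simulated data. Tables and figures were made with Python 3.11.15, pandas 2.3.3 and matplotlib 3.10.9. Per the design text of the series, cages are litters, which pairs the pools. Across genes, deviations from the group means correlated within cages 1, 2 and 3 with r = -0.18, 0.16 and 0.34 and between pools of different cages with r from -0.44 to 0.40. A replicate block for cage was run as an alternative.

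The members, their grouping by complex and the related lists were chosen with earlier results of these data known. Values are named for the 4 Sdh subunits, the genes of smallest genotype and cage p in each complex, the 8 largest differences, the isoform families, the brightest member of each complex and up to 2 genes of smallest p in each related list; other named genes were chosen after their values were seen. A comparison of protein sequences was planned and not analysed here. Alternatives were the replicate block, leaving out each pool, other choices of probe sets, a filter on dim genes, quantile normalization, array weights, subunits only and, chosen after seeing the data, leaving out cage 1.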

Additional observations from a re-analysis of the deposited data

How the results depend on the processing

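No member was called by genotype or between cages under any of the alternatives run, and for the 46 named members the limma adjusted p over the alternatives was at least 0.483. With cage as a replicate block, 0 of 94 members and 0 of all 18193 genes were called, so the pairing changed no call. Leaving out 1 pool moved the median of all members between -0.012 and 0.039, of complex II between -0.024 and 0.029, of complex III between -0.013 and 0.049 and of complex V between -0.028 and -0.0011. Members without overlap numbered 3 to 23 (higher) and 4 to 13 (lower) when 1 pool was left out, where all genes gave 7.56% to 13.5% and 10.4% to 15.8%. They numbered 10 and 17 (10.6% and 18.1%, against 12.7% and 17.6% of all genes) without cage 1 (chosen after seeing the data). With the mean of all probe sets they numbered 7 and 6, and with quantile normalization 1 was higher. For the mean of all probe sets and for quantile normalization, the share of all genes is not given here. Those counts therefore cannot be set against a background. With subunits only, 0 were higher without overlap and 8 were higher in all 3 cages, since the assembly factors were left out by construction. Those are 0% and 9.88% of the subunits, against 5.08% and 13.5% of all genes. The difference of Uqcrq was -0.24 with the mean of all probe sets and -0.54 without probe sets of the suffixes _x_at, _s_at and _a_at, where another probe set stands for the gene. The median of the assembly factors stayed above 0 throughout, from 0.051 without the wt pool of cage 1 to 0.21 without that of cage 3. The sign in all 3 cages was not computed with a pool left out, nor the cage test without cage 1. The 6 arrays of pooled RNA cannot separate the animals of a pool, and dim isoforms near the array median carry little signal over background.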
